A study of Tamarix ramosissima and Tamarix chinensis with 11 samples.

Results

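The 100 genes with the highest mean TPM over 11 leaf libraries of *Tamarix* (saltcedar, an invasive riparian shrub) are described here. They were chosen by that mean alone, from 117867 genes of a de novo assembly. TPM gives the abundance of a gene's transcripts, corrected for their length and scaled to the same total in every library, so that levels can be compared between genes. Leaves came from seedlings of *T. chinensis* (seed from New Mexico) and *T. ramosissima* (seed from Montana) that were 14 weeks old when they entered a growth chamber at 25 degrees C. Each species had a well-watered control group and a water deficit group, in which water was withheld until the leaves wilted. Control and water deficit plants were harvested at the wilting point, which *T. chinensis* reached after 10 days and *T. ramosissima* after 17 days. Species, seed source and day of harvest therefore cannot be told apart. Each library came from 1 plant, with n = 3 per group except the *T. chinensis* control (n = 2, since 1 sample was lost).

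In leaves of most plants, a small number of genes supplies a large share of the messenger RNA, above all those for the light-harvesting proteins and the small subunit of Rubisco, the enzyme that fixes carbon dioxide. When water is short, stomata close, photosynthesis slows, and abscisic acid induces genes such as those for dehydrins, proteins that protect cells as they dry. The files give no names for the assembled genes, so none of the 100 genes can be assigned to one of these roles, and no marker of leaf tissue could be looked up. The genes are called by their rank in mean TPM, with rank 1 the highest, and the identifiers printed are those of the assembly.

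The libraries held 10245008 to 15655257 estimated fragments, and every pair of libraries from 1 group differed by more than sampling noise. One control plant of *T. ramosissima*, replicate 1, stood apart: 740 genes made up 50% of its TPM, against 1021 to 1540 in the other libraries. Its TMM factor, which corrects library size for a skewed composition, was 0.831, against 0.931 to 1.10 elsewhere. Without it, 27 members changed the sign of their log2 fold change in the *T. ramosissima* response and 35 in the comparison of the controls, so values of both comparisons depend on this plant. In bulk leaf RNA, fewer cells of a type and less RNA per cell cannot be told apart.

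Mean TPM fell steeply with rank. It was 14273 for rank 1 (TRINITY_DN40032_c4_g2), 6333 for rank 10, 2472 for rank 20 and 1188 for rank 50. The last members lay at 692.7, 682 and 682 TPM (ranks 98 to 100), and the first 3 genes outside the list at 679.8, 663 and 659 TPM, so the list has no natural edge there.

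Being abundant on average was not the same as being abundant in every plant. Only 31 of the 100 genes were among the 100 most abundant genes of every library, 16 were so in fewer than 6 of the 11 libraries, and 240 different genes reached the top 100 of at least 1 library. The ratio of the highest to the lowest library had a median of 4.26 over the members. It exceeded 10 in 32 members and was under 2 in 7.

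**Figure D1:**
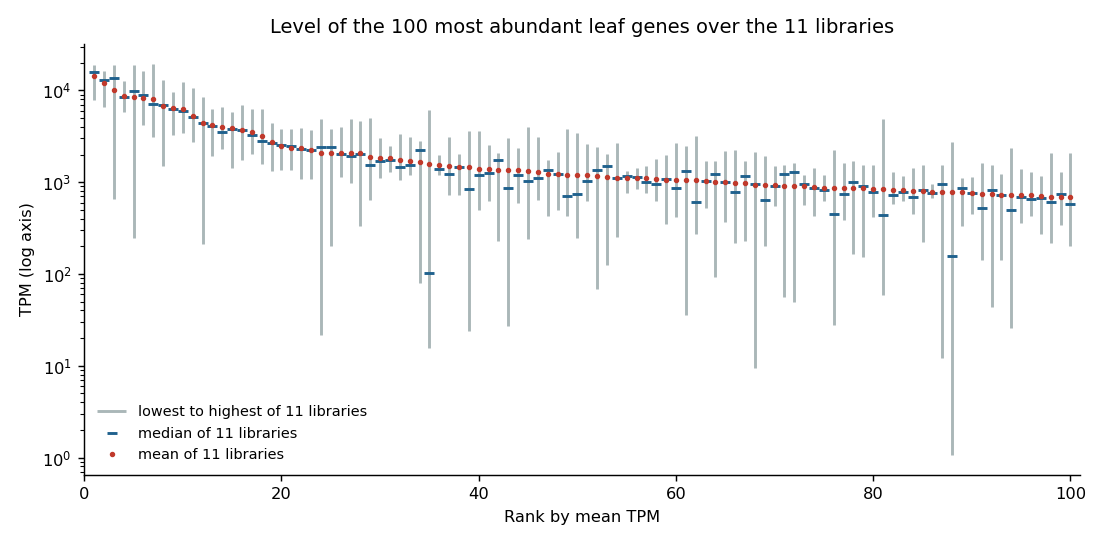
TPM (log axis) of each member against its rank by mean TPM, with a line from the lowest to the highest of the 11 libraries, a bar at the median and a point at the mean. Means fall from 14273 to 682 TPM, and the lines of ranks 24, 35, 68, 87 and 88 reach down to or below about 21.5 TPM.

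Rank 1 kept a high level in all plants. It was at 16068 and 9796 TPM in the *T. chinensis* controls and at 16272, 13839.8 and 18694 TPM under water deficit. In *T. ramosissima* it was at 17347, 17089 and 16245 TPM in the controls and at 7899, 9159 and 14594 TPM under water deficit. Every *T. ramosissima* water deficit plant was below every control of its species, whereas the *T. chinensis* groups overlapped. Neither difference passed the test, with log2 fold changes of 0.33 (SE 0.37, adjusted p = 0.561) and -0.71 (SE 0.56, adjusted p = 0.522). The steadiest member was rank 86, whose highest library was 1.42 times its lowest (667 to 947 TPM, median 772).

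The members took 22.2% of all TPM on average over the libraries, and 13.6% of the estimated fragments. In *T. chinensis* they took 21.8% and 21.7% of TPM in the controls and 21.0%, 20.4% and 20.6% under water deficit. In *T. ramosissima* they took 28.5%, 21.0% and 20.8% in the controls and 19.3%, 25.9% and 23.0% under water deficit. The *T. chinensis* groups did not overlap, although their means (21.7% ± 0.0333, SD, n = 2, and 20.7% ± 0.341, n = 3) differed by little more than 1 percentage point (-1.08). The *T. ramosissima* groups did overlap, at 23.4% ± 4.38 (SD, n = 3) and 22.7% ± 3.32 (n = 3). The difference between those means was -0.67 percentage points. It was 1.86 without control replicate 1 and 1.05 without water deficit replicate 1, so its sign rests on either plant. The members were chosen by these same values, so the shares are a description without a test.

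**Figure D2:**
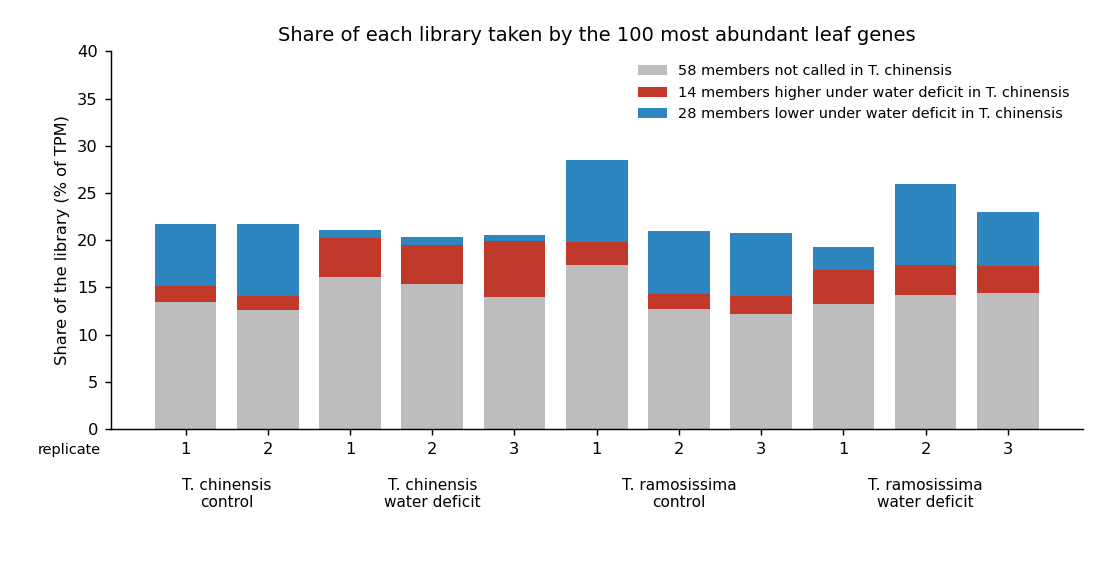
Share of each library's TPM (%) taken by the 100 members, stacked for the 28 members called lower, the 14 called higher and the 58 not called under water deficit in *T. chinensis*. The total lies between 19.3% and 28.5%, while the part of the 28 members lies between 0.700% and 0.877% when *T. chinensis* plants were short of water.

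In *T. chinensis* a nearly constant total went with a large exchange within the list. From control to water deficit, 49 members gained 7.10 percentage points of TPM in all and 51 changed by -8.18. In *T. ramosissima*, 47 members gained 4.07 points and 53 changed by -4.74, and without control replicate 1 it was 59 and 41 members, with 5.33 and -3.47 points. Ranks 7, 6 and 8 added most in both species, together 2.29 percentage points in *T. chinensis* and 1.32 in *T. ramosissima*. Ranks 3, 5 and 12 took away most in *T. chinensis*, with -2.94 percentage points together. In *T. ramosissima* ranks 1, 2 and 3 took away most, with -1.67 percentage points together.

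The gene with the highest level changed accordingly. In the *T. chinensis* controls it was rank 1 in 1 plant and rank 3 in the other, and under water deficit it was ranks 1, 6 and 7 in the 3 plants. Of the 100 members, 82 and 79 were in the top 100 of the *T. chinensis* controls, and 66, 66 and 62 in that of the water deficit plants. The *T. ramosissima* controls held 75, 80 and 77 and the water deficit plants 69, 80 and 82.

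Under water deficit, more of the 100 members were called lower than higher in *T. chinensis*, and the excess lay in ranks 51 to 100. A fall lowers the mean that sets the rank, so this place in the list follows in part from the ordering. By edgeR's quasi-likelihood test, with p-values adjusted over 28210 genes and called at an adjusted p of at most 0.05, 28 members fell and 14 rose. Over all genes tested, 10.9% fell and 7.68% rose. The mean that chose the members also covers the *T. chinensis* controls and the *T. ramosissima* plants. A gene low only in the *T. chinensis* water deficit plants could therefore keep its place, so the counts are not read against those shares. The 28 members that fell changed by -6.20 to -1.002 on the log2 scale (median -3.19), and the 14 that rose by 0.94 to 2.36 (median 1.504). The median absolute log2 fold change was 1.004 over the members and 0.57 over all genes tested, and the signed medians were -0.06 and 0.02.

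The study's threshold within a species was an adjusted p of at most 0.005 and a log2 fold change of 1 or more in size. By the quasi-likelihood test, 4 members (all lower) and 0.347% of all genes passed it. Earlier simulations of these designs recovered nothing by this test at 0.005. In these data 98 genes passed the threshold in *T. chinensis* and 2072 in the average over both species, so the simulations differ from the data there. They cannot tell how much the small number means, and it is given as a description only. The study's own edgeR run reported far more genes with these cutoffs. By TPM alone, every water deficit plant was below both controls for 43 members and above both for 31. The same held for 28.1% and 24.8% of all genes tested. The calls rest on both controls. Without control replicate 1, 3 members were called (all lower, against 0.0931% of all genes), and without replicate 2 none was, with the lone control assumed to vary like the water deficit group. The 14 members higher became 8 without water deficit replicate 1 and 7 without replicate 3.

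The 3 deepest falls ended below 100 TPM in every water deficit plant. Log2 fold changes, from the counts, are given in brackets after the TPM levels, with their SE and adjusted p. Rank 87 (TRINITY_DN28098_c6_g1) was at 1026 and 1552 TPM in the controls and at 12, 21.7 and 17.8 TPM under water deficit, a log2 fold change of -6.20 (SE 0.37, adjusted p = 0.00343). Rank 24, the most abundant of those that fell this far, went from 2853 and 4059.6 TPM to 21.5, 74.2 and 70.4 TPM (-5.95, SE 0.61, adjusted p = 0.00656). Rank 68 went from 1335 and 2126 TPM to 9.49, 37 and 32 TPM (-6.03, SE 0.62, adjusted p = 0.00664), with a lowest count of 39 fragments in any library. In each of these 3 genes the lowest control was more than 10 times the highest water deficit plant, so the groups were far apart. Among the members called, ranks 61 and 34 came next, with log2 fold changes of -5.31 (SE 0.31, adjusted p = 0.00343) and -4.53 (SE 0.34, adjusted p = 0.00471).

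Among the 10 most abundant genes, ranks 3 and 5 fell. Rank 3, the most abundant gene of control replicate 2, was at 15354 and 13839.5 TPM in the controls and at 1228, 1548 and 658 TPM under water deficit (-3.75, SE 0.41, adjusted p = 0.00714). Rank 5 was at 8813 and 9859 TPM in the controls and at 247, 1061 and 662 TPM under water deficit (-3.76, SE 0.60, adjusted p = 0.0158). Rank 12 was at 8488 and 7845 TPM and then at 1355, 214 and 1250.3 TPM (-3.0, SE 0.73, adjusted p = 0.0418). All 3 genes lay below both controls in every water deficit plant, and they accounted for the largest losses of TPM in this species.

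The members that rose were changed less. Rank 7 went from 4229 and 4396 TPM in the controls to 10160.0, 11120.5 and 19614 TPM under water deficit (1.68, SE 0.34, adjusted p = 0.027). Rank 8 went from 3969 and 1502 TPM to 8795, 5535 and 13126 TPM (1.79, SE 0.40, adjusted p = 0.0343). Rank 6 was at 5024 and 5132 TPM and then at 9280.4, 16099 and 11402 TPM, which did not pass the test (1.38, SE 0.39, adjusted p = 0.0612). All water deficit plants lay above both controls for these 3 genes, with replicate 3 the highest for ranks 7 and 8 and replicate 2 for rank 6.

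The largest called rises were those of ranks 49, 50, 62 and 65. Rank 50 (TRINITY_DN36342_c1_g1) went from 513 and 532 TPM to 1660.5, 3434 and 3213 TPM (2.30, SE 0.37, adjusted p = 0.0162). Rank 62 (TRINITY_DN30479_c0_g2) went from 605 and 530.0 TPM to 2276, 1699.7 and 3219 TPM (2.11, SE 0.34, adjusted p = 0.0164). Both had controls close to each other and every water deficit plant well above them. Ranks 49 and 65 had log2 fold changes of 2.36 (SE 0.45, adjusted p = 0.0227) and 2.09 (SE 0.39, adjusted p = 0.022).

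**Figure D3:**
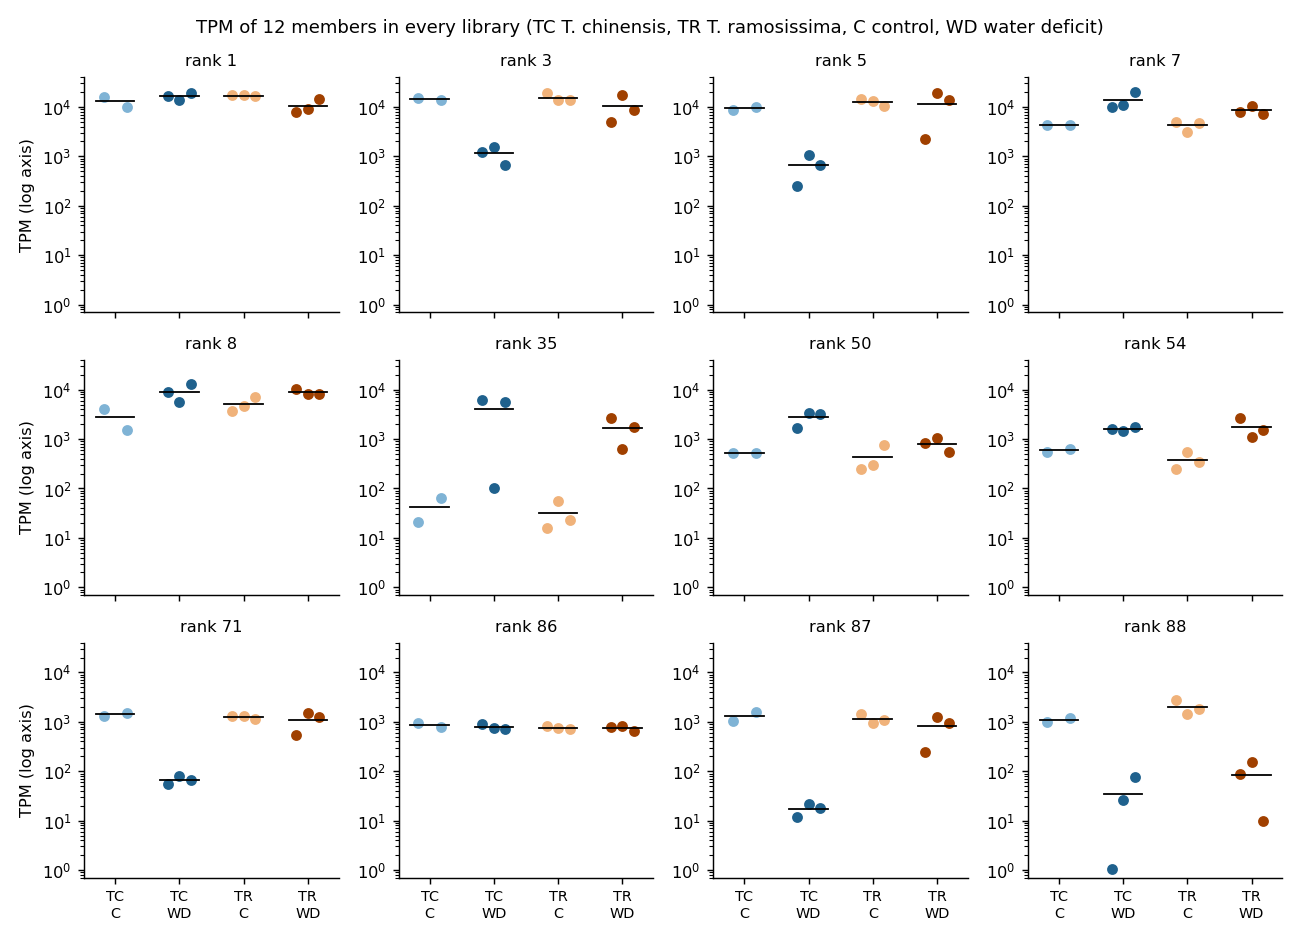
TPM (log axis) of 12 members in every library by group, where points are single plants and bars are group means (n = 2 for the *T. chinensis* control and n = 3 elsewhere). Ranks 3, 5, 71 and 87 are low in all 3 *T. chinensis* water deficit plants and in no other group throughout, rank 54 is high under water deficit in both species, and rank 86 stays between 667 and 947 TPM.

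The 28 members that fell in *T. chinensis* made up 6.56% and 7.68% of TPM in its controls and 0.779%, 0.877% and 0.700% under water deficit. The *T. ramosissima* plants entered the mean TPM that made these genes members, but not the test that picked the 28. There the 28 made up 8.69%, 6.66% and 6.68% in the controls and 2.47%, 8.58% and 5.75% under water deficit. Water deficit replicate 1 was thus below every control, replicate 3 was below them by a smaller margin, and replicate 2 lay within their range. The 14 members that rose made up 1.70% and 1.41% of TPM in the *T. chinensis* controls and 4.18%, 4.10% and 5.85% under water deficit. In *T. ramosissima* they made up 2.39%, 1.57% and 1.96% in the controls and 3.59%, 3.11% and 2.86% under water deficit, so that these groups did not overlap.

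In *T. ramosissima*, 2 members rose and 0 fell, where 1.65% of the 29025 genes tested rose and 2.39% fell. At an unadjusted p under 0.05 there were 27 members, against 21.6% of all genes. DESeq2 called 19 members and 11.5% of all genes, and edgeR's exact test 17 members and 9.71%. With scaling by library size only, the quasi-likelihood test called 3 higher and 3 lower, against 1.42% and 2.64%. Both members that rose are outside the 100 genes with the highest mean over the controls alone, so they owe their place to the water deficit plants, and their rise follows in part from the choice. The median absolute log2 fold change was 0.54 over the members and 0.43 over all genes tested, with signed medians of -0.13 and 0.02. The signed median of the members was 0.41 without control replicate 1. By TPM, every water deficit plant was above every control for 18 members and below for 18, against 11.9% and 14.5% of all genes.

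Rank 35 had the largest change. It was at 15.6, 57 and 23.4 TPM in the *T. ramosissima* controls and at 2668, 616 and 1742 TPM under water deficit (5.73, SE 0.68, adjusted p = 0.0146). In *T. chinensis* it was at 21.1 and 62.9 TPM in the controls and at 6150.1, 102 and 5743 TPM under water deficit. Water deficit replicate 2 thus stayed near the controls while the other 2 plants were far above them, and the change did not pass the test in that species (6.82, SE 2.03, adjusted p = 0.0676). Its place in the list comes from the water deficit plants alone, since its median over all 11 libraries was 102 TPM.

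Rank 54 (TRINITY_DN40085_c7_g1) was the 1 member called in both species. It was at 252, 545 and 347 TPM in the *T. ramosissima* controls and at 2641, 1124 and 1520.3 TPM under water deficit (2.23, SE 0.37, adjusted p = 0.0251). In *T. chinensis* it went from 556 and 619 TPM to 1579, 1459.9 and 1719 TPM (1.44, SE 0.20, adjusted p = 0.0115). The groups did not overlap in either species. In *T. ramosissima* neither call held with each plant left out. No member was called without control replicate 1 or 3, and rank 54 was not called without control replicate 2 or water deficit replicate 3 either, which left 1 member.

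Rank 88 was lower under water deficit in both species and missed the threshold in each. It was at 980.5 and 1193 TPM in the *T. chinensis* controls and at 1.06, 25.7 and 76.1 TPM under water deficit (-4.94, SE 1.39, adjusted p = 0.0587). In *T. ramosissima* it was at 2767, 1439.6 and 1843 TPM in the controls and at 87.6, 156 and 9.75 TPM under water deficit (-4.60, SE 1.0, adjusted p = 0.0507). All 6 water deficit plants lay below all 5 controls. Its lowest value rests on 12 fragments, the smallest count of any member.

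**Figure D4:**
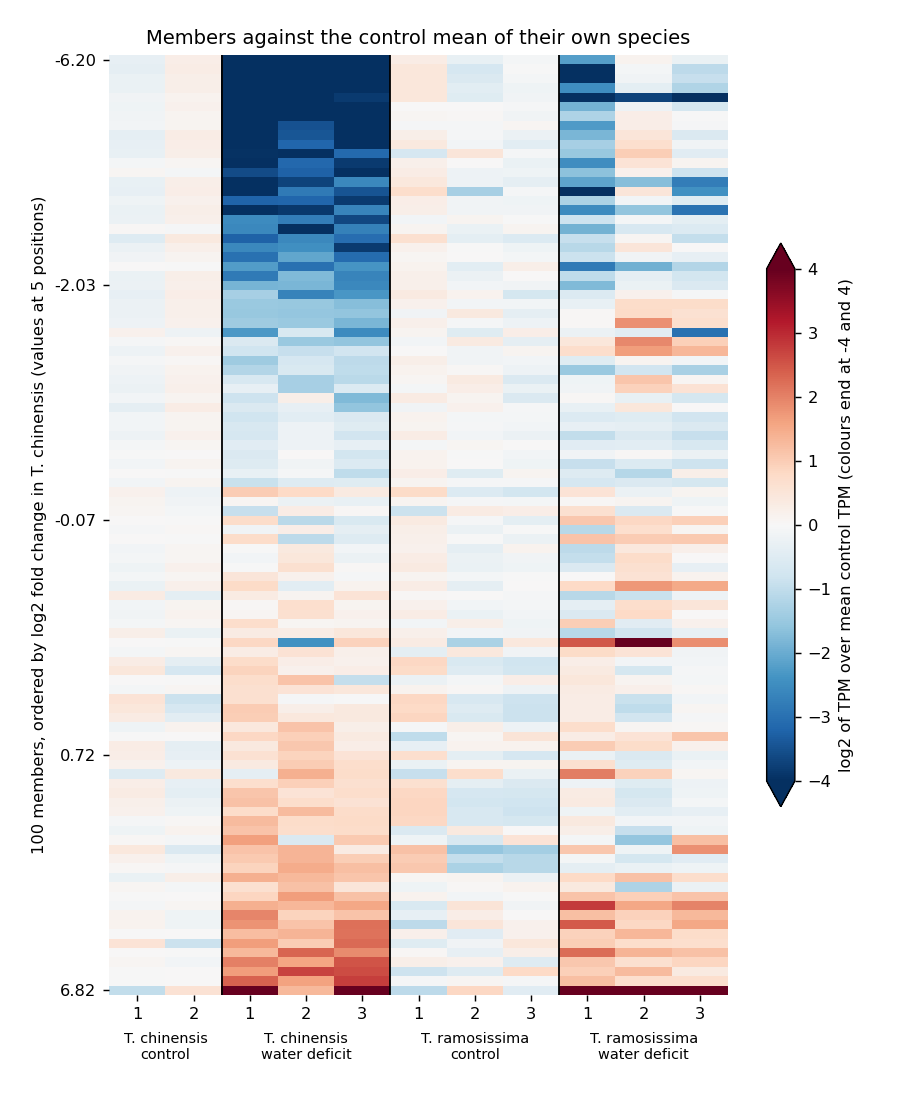
Log2 of each member's TPM over the mean of the controls of its own species (colour, ending at -4 and 4), for 100 members ordered by their log2 fold change in *T. chinensis* (from -6.20 at the top to 6.82 at the bottom) and 11 libraries in columns. The upper block is blue in all 3 *T. chinensis* water deficit plants, paler in *T. ramosissima* water deficit replicate 1, and close to white in replicate 2.

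The responses of the species had no library in common and can be set side by side. Of the 100 members, 70 had the same sign in both, and 79 had the larger absolute log2 fold change in *T. chinensis*. Pearson's r between the log2 fold changes was 0.63 over 100 members, which are not independent of each other and share the assembly. Neither equal signs nor r were computed over all genes tested. Water deficit plants of both species entered the mean that chose the members. Of the 18 members outside the 100 highest by control mean, 16 were positive in *T. chinensis* and 16 in *T. ramosissima*. Equal signs thus follow in part from the choice. Of the 28 members that fell in *T. chinensis*, 23 had a negative log2 fold change in *T. ramosissima*, with medians of -3.19 and -0.42. Of the 14 that rose, 11 had a positive one, with medians of 1.504 and 0.88. Without *T. ramosissima* control replicate 1, 73 members had the same sign, 68 had the larger change in *T. chinensis* and r was 0.65. Then 16 of the 28 had a negative log2 fold change in *T. ramosissima* (median -0.09) and all 14 of the others a positive one (median 1.04). The 28 and the 14 were picked by the test in *T. chinensis*, which favours the larger values there. The 100 members were picked by mean TPM and not by that test.

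**Figure D5:**
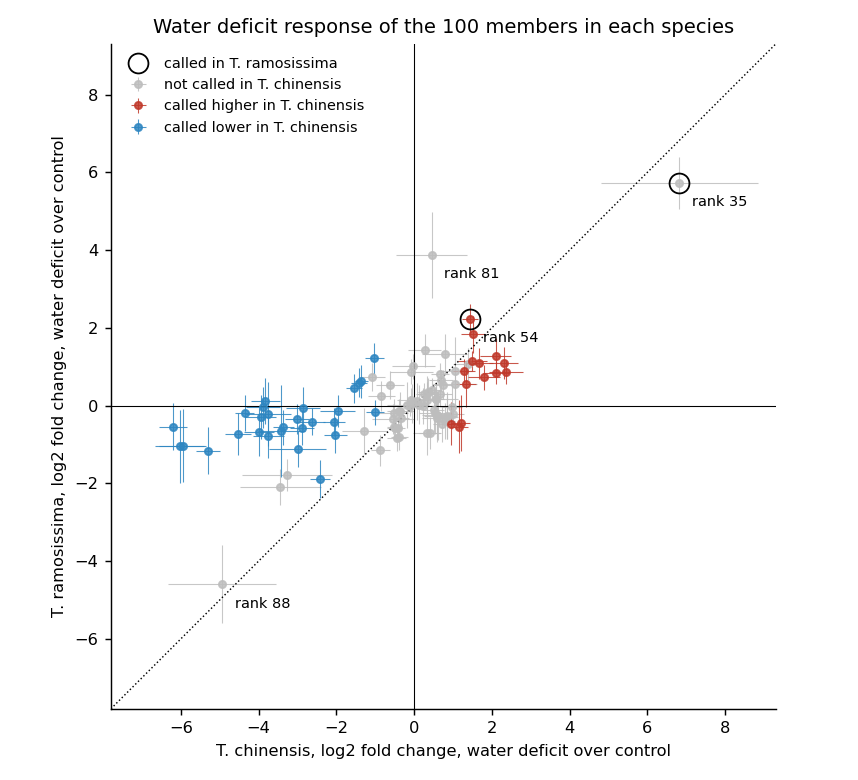
Log2 fold change under water deficit in *T. ramosissima* against that in *T. chinensis* for 100 members, with bars of 1 SE and a dotted line of equal change. The 28 members called lower in *T. chinensis* (blue) spread from -6.20 to -1.002 on the horizontal axis, and 23 of them lie below 0 on the vertical axis, while ranks 35, 54 and 88 lie close to the dotted line.

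The *T. ramosissima* plants did not respond alike. Against the mean of their controls, the 28 members had a median log2 value of -1.42 in water deficit replicate 1, 0.16 in replicate 2 and -0.42 in replicate 3. In replicate 1, 19 of the 28 were more than 1 log2 unit below the control mean, against 1 in replicate 2 and 4 in replicate 3. The 3 *T. chinensis* water deficit plants were at -3.22, -3.07 and -3.55, and since the 28 were picked by a test on these plants, their closeness follows from the choice. Without water deficit replicate 1, the median log2 fold change of the 28 members in *T. ramosissima* was -0.11, and 17 of them were negative.

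The difference between the species in response was tested for each gene over all 11 libraries. The response of 1 member passed, rank 71 (TRINITY_DN25899_c0_g1), against 0.0639% of 31320 genes. It was at 1299 and 1537 TPM in the *T. chinensis* controls and at 56.4, 80.3 and 67.3 TPM under water deficit (-4.36, SE 0.24, adjusted p = 0.00343). In *T. ramosissima* it was at 1324, 1308 and 1141 TPM in the controls and at 538, 1524 and 1239.8 TPM under water deficit (-0.19, SE 0.46, adjusted p = 0.863). Only replicate 1 of the *T. ramosissima* water deficit plants was below the controls. The response was lower in *T. chinensis* by a log2 difference of -4.13 (SE 0.57, adjusted p = 0.0345).

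This call depended on single plants. At an unadjusted p under 0.05 there were 29 members, against 11.6% of all genes, and DESeq2 called 23 members and 2.94% of all genes. Without *T. ramosissima* water deficit replicate 1, 22 members were called, all with a lower response in *T. chinensis*, against 2.15% of all genes, and 21 of these were among the 28 that fell there. Without any one of the other 10 libraries, none was called. The median absolute difference was 0.97 log2 units over the members and 0.48 over all genes tested. A gene low only in the *T. chinensis* water deficit plants could keep its place in the list. The counts and this median are therefore not read against the values over all genes.

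Some members had log2 fold changes of opposite sign in the species, and none of those named here passed the test in *T. ramosissima*. Of the 28 that fell in *T. chinensis*, ranks 59, 60, 85, 94 and 98 had a positive log2 fold change in *T. ramosissima*. Rank 60 was at 704 and 909 TPM in the *T. chinensis* controls and at 461, 422 and 479 TPM under water deficit (-1.03, SE 0.24, adjusted p = 0.0388). In *T. ramosissima* it was at 862, 768 and 911 TPM in the controls and at 1394, 2672 and 2144 TPM under water deficit (1.21, SE 0.40, adjusted p = 0.139). The groups did not overlap in either species, but the difference between the responses did not pass the test (-2.19, SE 0.48, adjusted p = 0.109). Of the 14 that rose in *T. chinensis*, ranks 27, 32 and 46 had a negative log2 fold change in *T. ramosissima*, which was positive without its control replicate 1.

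When the responses of both species were averaged over all 11 libraries, 14 members rose and 30 fell, where 11.6% of the 31320 genes tested rose and 14.5% fell. This comparison uses the same libraries as those within the species and is no separate evidence. Of the 14 that rose, 10 owe their place in the list to the water deficit plants, so their number is not read against that of all genes. The largest called rises were those of ranks 35 (6.27, SE 1.10, adjusted p = 0.0032), 54 (1.83, SE 0.23, adjusted p = 0.000967), 50 (1.69, SE 0.30, adjusted p = 0.00324), 65 (1.67, SE 0.34, adjusted p = 0.00602) and 91 (1.66, SE 0.31, adjusted p = 0.00432). The smallest adjusted p among members that rose belonged to ranks 54 and 62, the latter with a log2 change of 1.47 (SE 0.24, adjusted p = 0.00216). The largest called falls were those of ranks 88 (-4.78, SE 0.93, adjusted p = 0.00505), 68 (-3.55, SE 0.70, adjusted p = 0.00507), 24 (-3.50, SE 0.67, adjusted p = 0.00465), 87 (-3.38, SE 0.42, adjusted p = 0.000929) and 61 (-3.24, SE 0.41, adjusted p = 0.000943). Each of these kept its call with any one library left out.

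Rank 6, which passed in neither species alone, rose on average by 1.22 (SE 0.27, adjusted p = 0.00892). Its controls lay between 4220.1 and 5132 TPM in both species and its water deficit plants between 8996 and 16099 TPM, so all 6 treated plants were above all 5 controls. Ranks 39 and 43, from the same assembly cluster, fell on average by log2 changes of -2.78 (SE 0.59, adjusted p = 0.00731) and -2.54 (SE 0.63, adjusted p = 0.0151). Rank 39 was at 3654, 2389 and 2136 TPM in the *T. ramosissima* controls and at 631, 838 and 402 TPM under water deficit (-2.10, SE 0.46, adjusted p = 0.0518), and no treated plant reached a control in either species.

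The species did not differ detectably in their controls. Of the 100 members 0 passed by the quasi-likelihood test, where 0.00709% of 28225 genes did. At an unadjusted p under 0.05 there were 4 members, against 7.73% of all genes. DESeq2 and edgeR's exact test called 2 members each, against 1.3% and 1.26%, and limma-voom called 0, against 0.00354%. The median absolute log2 difference was 0.23 over the members and also 0.23 over all genes. The largest log2 difference, from the counts, was that of rank 8 (-1.66, SE 0.39, adjusted p = 0.39). It was at 3969 and 1502 TPM in the *T. chinensis* controls and 3688, 4679 and 7012 TPM in those of *T. ramosissima*, and the groups overlapped. Its ratio of fragments to TPM, relative to the median gene, varied 2.04-fold between libraries. Counts and TPM therefore do not give the same difference. By mean TPM, rank 81 differed by a larger factor, with 436 in the *T. chinensis* controls and 141 in those of *T. ramosissima*.

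Under water deficit the species differed in more members. In *T. chinensis*, 19 members were lower and 2 higher than in *T. ramosissima*, where 2.21% of 28854 genes were lower and 1.78% higher. All 19 were also called lower under water deficit within *T. chinensis*. A gene low only in those plants could keep its place in the list through the other groups. The counts are therefore not read against these shares. The 2 higher members were ranks 50 (1.91, SE 0.40, adjusted p = 0.049) and 62 (1.71, SE 0.31, adjusted p = 0.0369). Among the members called, the largest differences the other way were those of ranks 87 (-5.61, SE 0.69, adjusted p = 0.0248), 94 (-5.27, SE 0.77, adjusted p = 0.0273), 61 (-4.23, SE 0.59, adjusted p = 0.0265), 71 (-4.10, SE 0.47, adjusted p = 0.0241) and 34 (-4.03, SE 0.57, adjusted p = 0.0268). Rank 87 was at 12, 21.7 and 17.8 TPM in the *T. chinensis* water deficit plants and at 249, 1276 and 959.6 TPM in those of *T. ramosissima*, so the groups were apart by more than 10-fold even in the lowest *T. ramosissima* plant.

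Rank 94 was lower in *T. chinensis* in both treatments. In the controls it was at 339.8 and 496 TPM in the *T. chinensis* controls and 734, 1636 and 1145 TPM in those of *T. ramosissima* (-1.38, SE 0.27, adjusted p = 0.355), a difference that did not pass the test. Under water deficit it was at 27.1, 25.7 and 48.3 TPM in *T. chinensis* and 413, 2340.4 and 857 TPM in *T. ramosissima*. Its lowest estimated count in any library was 16.8 fragments, so its low values rest on few fragments. The species did not overlap in either treatment. The 21 calls under water deficit fell to 0 without *T. chinensis* replicate 1 or 3 or without *T. ramosissima* replicate 2 or 3, and to 3 without *T. chinensis* replicate 2.

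Control replicate 1 of *T. ramosissima* had the largest share of TPM in the members, 28.5%. In it, 73 members were above the mean of the other 2 controls, 17 of them by at least 2-fold, and 6 members were at least 2-fold below. The 17 genes include ranks 10, 14, 16, 17, 18, 26 and 27. Rank 10 was at 12210.1, 4439.6 and 3752 TPM in the 3 controls, and rank 27 at 4929.8, 969 and 1085 TPM. The first plant was the high one in both.

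These 17 members together made up 7.04% of TPM in that plant and 2.52% and 2.31% in the other controls of its species. They made up 3.39% and 2.55% in the *T. chinensis* controls and 4.76%, 3.90% and 3.52% in its water deficit plants. In the *T. ramosissima* water deficit plants they made up 4.33%, 2.95% and 3.65%. In *T. chinensis*, whose plants entered the mean TPM of the members but not the choice of the 17 among them, every water deficit plant was above both controls in this sum.

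The sign of these genes' response in *T. ramosissima* rested on that plant. With all plants, 2 of the 17 had a positive log2 fold change in *T. ramosissima* (median -0.30), and without control replicate 1, 16 of them did (median 0.72). Since the genes were picked as low in the other 2 controls relative to this plant, that direction follows in part from the choice. Ranks 27, 32 and 46, named above for opposite signs, are among them. Without the plant their values in *T. ramosissima* were 0.99 (SE 0.29, adjusted p = 0.17), 0.54 (SE 0.22, adjusted p = 0.287) and 0.76 (SE 0.31, adjusted p = 0.278), none of which passed. In the average over both species, 25 members rose without this plant in place of 14, against 10.4% of all genes then tested. Of the 12 that were called only then, 10 were among the 17.

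A few genes drew a large part of their mean from 1 plant. In 10 members, more than 25% of the TPM summed over the 11 libraries came from a single library. The highest share was 53.4%, for rank 81 in *T. ramosissima* water deficit replicate 2. Rank 81 was at 175, 58.9 and 189 TPM in the controls of that species and at 789.9, 4911 and 507 TPM under water deficit, and the difference did not pass the test (3.88, SE 1.11, adjusted p = 0.101). Ranks 94, 98 and 100 also had their highest level in that plant.

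Which genes enter the list depends in part on the treated plants. Of the 100 members, 82 were also among the 100 with the highest mean over the controls alone. Of these, 7 rose and 27 fell in *T. chinensis*. Of the 18 others, 7 rose and 1 fell, and by the rule these owe their place to the water deficit plants. In the average over both species, 4 of the 82 rose and 30 fell, and 10 of the 18 rose and 0 fell. Rises among the 18 are therefore built into the choice in part and support nothing. The controls also entered the mean, so falls among the 82 can follow in part from the choice as well.

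Calls came from all parts of the list, but their direction differed. In *T. chinensis*, 4 of ranks 1 to 10 were called (2 higher, 2 lower) and 13 of ranks 11 to 50 (7 higher, 6 lower). Of ranks 51 to 100, 25 were called, 5 higher and 20 lower. The mean that sets the rank includes the water deficit plants, so a fall pushes a gene down the list and a rise pushes it up. This difference in direction follows in part from that ordering. In all, 46 members were called in none of the 6 comparisons.

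Several members were pieces of the same assembly cluster, a set of contigs that Trinity built from overlapping reads and that can hold copies, variants or parts of 1 gene. The 100 members came from 87 clusters, and 10 clusters held at least 2 members (23 in all). Within each of these 10, the members had the same sign in *T. chinensis*, and in 7 their log2 fold changes spanned less than 1. Ranks 5 and 24, for example, fell together, as did ranks 61, 68 and 76, and ranks 54 and 91 rose together. Ranks 39 and 43 fell on average over both species while rank 63 of their cluster did not pass, with a log2 change of 0.02 (SE 0.25, adjusted p = 0.971). Such members can share fragments, which RSEM divides between them, and are not independent. In 61% of members the estimated count was not whole in at least 1 library, a sign of divided fragments, against 25.4% of genes with a mean of at least 1 TPM. Members hold more fragments than most of those genes, which gives more chances of a divided one, and the 2 were not separated.

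Many members were short contigs. The ratio of fragments to TPM, which rises with a gene's effective length, was 0.39 times that of the median gene in the median member, and it was below that of the median gene in 83 of 98. Relative to the median gene, it varied more than 1.5-fold between libraries in 23 of the 98. Log2 fold changes from counts need not match the TPM levels in these. By mean CPM, which is not corrected for length, 59 of the 100 were still among the 100 highest, and rank 94 was the lowest at place 4891. TPM divides by length, so this property follows in part from the way the members were chosen.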

How the data were processed

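Leaf RNA of 11 *Tamarix* plants was sequenced as read pairs. Per the methods, the authors used Prinseq for trimming, Trinity to assemble both species together, Bowtie for alignment and RSEM for abundance. One deposited table holds expected counts, RSEM's estimate of the fragments of each assembled gene without normalization, of which 3.11% to 4.00% per library are not whole numbers. The other deposited table holds the authors' TPM, whose sum per library is the nominal total within 5.03. A fragment that fits several contigs was divided by RSEM before deposit, so contigs of 1 gene can split its counts.

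The members are the 100 genes with the highest mean TPM, and they, the lists and the tests were chosen with earlier results of these data known. Groups followed the sample titles. Estimated counts were rounded and tested in R 4.3.3 with edgeR 4.0.16 (TMM factors, quasi-likelihood test, genes over 1 CPM in 2 or more compared libraries, Benjamini-Hochberg adjustment over all genes tested, calls at an adjusted p of at most 0.05). Standard errors came from the fold change and the F statistic. Each fit used the groups compared, and the average response and the difference between species used all 11 libraries, so comparisons share libraries. Each test was tested on simulated data.

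Values are named by rank. Full values were given for up to 5 called members per comparison and direction with the largest change and for the 3 members that added most to, or took most from, the summed TPM of each species. Identifiers were given for rank 1 and the called members with the smallest adjusted p. Other members in the text were chosen after their values were seen. Alternatives tried were DESeq2 1.42.0, the exact test of edgeR, limma 3.58.1 (voom, and trend on log2(TPM + 1) or log2(TPM + 0.1)), other scalings, filters, thresholds and member lists, 1 fit of all groups, the replicate number as a block, and each library left out in turn. With 10245008 to 15655257 fragments per library, counting error is small for all but the 5 members with a count under 100 in some library. Gene names, functions and sequences were not used here.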

Additional observations from a re-analysis of the deposited data

Results flagged for a closer look

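The water deficit response of rank 71 differed between the species by a log2 difference of -4.13 (SE 0.57, adjusted p = 0.0345, edgeR's quasi-likelihood test over all 11 libraries), lower in *T. chinensis*. In 3 further members the groups did not overlap within either species, but the direction was opposite. The test of the difference itself did not call these 3. Separation of this kind is common among all genes tested. For *T. chinensis*, 24.8% had every water deficit plant above both controls, and 28.1% had every one below. The *T. ramosissima* shares were 11.9% above and 14.5% below. Genes with opposite directions were not counted over all genes, so the number of these members is not read as unusual. Rank 2 was higher in *T. chinensis* and lower in *T. ramosissima*, with a difference of 1.15 (SE 0.50, adjusted p = 0.405). Ranks 60 and 100 were lower in *T. chinensis* and higher in *T. ramosissima*, with differences of -2.19 (SE 0.48, adjusted p = 0.109) and -1.76 (SE 0.53, adjusted p = 0.229).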

How the results depend on the processing

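Over 605 alternative values for 32 results of named members, all of them called, the direction held in all, 511 kept their side of the threshold and 94 lost the call. Among all 100 members, called or not, leaving out *T. ramosissima* control replicate 1 changed the sign of 27 in that species and of 35 between the controls. Leaving out 1 library gave 0 to 47 called members in *T. chinensis* (42 with all), 0 to 2 in *T. ramosissima* (2), 0 to 29 between the species under water deficit (21) and 0 to 22 for the difference in response (1). The stricter threshold gave 4 in *T. chinensis* (98 of 28210 genes) and 23 for the average response (2072 of 31320 genes). It gave 0 in *T. ramosissima* and between species under water deficit, where 0 genes passed. For the difference in response it gave 0, where 2 genes passed. In *T. ramosissima* the count was 6 by library size only, 19 with no filter beyond a count above 0, 4 with filterByExpr, 19 by DESeq2, 17 by the exact test, 5 and 4 by limma-trend with pseudocounts of 1 and 0.1, 4 by limma-voom, and 5 in 1 fit of all groups. Between the controls it was 12 with no filter, 2 by the exact test and 2 by DESeq2, and under water deficit 42 with no filter and 33 by DESeq2. For the difference in response it was 6 by library size only, 2 with TMM factors set without the members, 33 with no filter, 2 with filterByExpr, 23 by DESeq2 and 0 by limma-voom. The causes were not tested. Except where a share is given here or above, these counts have no share over all genes beside them. They show how the calls moved with the processing and are no result about the members.

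The replicate numbers did not pair the plants (correlations of deviations -0.18 to 0.10, and 2 of 6 *T. ramosissima* plants and 4 of 6 water deficit plants correlated best with their own number). With the replicate block, 26 members were called in *T. chinensis*, 0 in *T. ramosissima* and 1 between the controls. None was called between species under water deficit or for the difference in response. These counts too have no share over all genes beside them.

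Other lists gave other counts, from the same fits and thus against the same shares over all genes as above. The 50 highest genes gave 17, 1, 6, 19 and 0 calls (*T. chinensis*, *T. ramosissima*, species under water deficit, average, difference in response), and the 200 highest gave 82, 11, 36 and 89 for the first 4. In *T. ramosissima* the lists by median TPM, mean CPM and mean control TPM gave 1, 1 and 0. The mean share of the members was 13.6% as counts, and the share of TPM was 18.8% for the list by mean CPM, 17.7% for 50 genes and 27.3% for 200. The change of share in *T. chinensis* was -2.13 percentage points for the list by median TPM, -0.38 by mean CPM, -4.12 by control TPM, 0.46 for 50 genes and -1.74 for 200.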
